A study of Homo sapiens and Mus musculus with 10 samples.

Results

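Melanocytes and the melanomas that arise from them share a small set of lineage genes, and 7 of these were followed here in tumour-bearing mouse skin. They were chosen by name, as pigment cell genes, and were Tyr (ENSMUSG00000004651), Tyrp1 (ENSMUSG00000005994), Dct (ENSMUSG00000022129), Pmel (ENSMUSG00000025359), Mlana (ENSMUSG00000024806), Mitf (ENSMUSG00000035158) and Sox10 (ENSMUSG00000033006). The choice was made with earlier results of these data known. All 7 were among the 78298 gene rows of the mouse table, and all 7 were among the 14537 genes tested, which had to reach 1 TPM in 2 or more libraries. The identifiers were paired with these names by the rule that chose the genes, since the table itself lists identifiers and transcripts without names. The rows listed 2 transcripts for Mlana, 3 each for Tyr and Pmel, 4 each for Tyrp1, Dct and Sox10, and 8 for Mitf, and no other row of the table held the same 4 values as any of them.

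The study set mice with Camp deleted in keratinocytes against mice that kept the gene, and this comparison asks whether the pigment cell transcripts of the tumour-bearing skin differ between them. Camp encodes cathelicidin, the precursor of the antimicrobial peptide that is called LL-37 in humans. All mice received 200000 B16-F0-Luc cells, a mouse melanoma line carrying luciferase, into the dorsal skin on day 1, had 30 mg of imiquimod, which activates Toll-like receptor 7, put on that skin as a cream daily from day 15 to day 21, and gave 1 piece of tumour-bearing skin each on day 25. The labels contradict each other on genotype. The columns cKO-1 and cKO-2 belong to libraries titled WT with the genotype Campf/f, and the columns WT-1 and WT-2 belong to libraries titled cko with the genotype K14CreCampf/f, so that both genotypes carry floxed Camp alleles and differ in the K14Cre transgene, whose keratin 14 promoter acts in basal keratinocytes. The groups are called by their column (n = 2 libraries each, from separate mice per the series text), and no direction by genotype is drawn. Camp itself, and markers of hair follicle, keratinocytes, Schwann cells, macrophages and other cells of the skin, were not analysed here. No source used here gives the age or strain of the mice.

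Melanin is made in melanosomes, organelles in which Tyr, the tyrosinase, carries out the rate-limiting oxidation of tyrosine, and its relatives Dct, a dopachrome tautomerase, and Tyrp1 act on later intermediates. Pmel forms the fibrils on which melanin is laid down, and Mlana is a small melanosomal membrane protein that assists Pmel maturation. Mitf is the master transcription factor of the lineage and drives the pigment genes, and Sox10 is a neural crest factor upstream of Mitf. Sox10 is also made by Schwann cells, and Mitf by mast cells and cells of the macrophage lineage. The same genes are on in normal melanocytes of the mouse hair follicle and in pigmented melanoma cells, so that their transcripts from B16-F0-Luc cells and from the host's own melanocytes cannot be told apart in these libraries. In a bulk library, a larger number of pigment cells and more of a transcript per cell cannot be told apart either.

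The 7 genes together were among the abundant transcripts of every library. Their summed level was 9178 TPM in column cKO-1 and 10786 TPM in column cKO-2, against 9077 TPM in column WT-1 and 10112 TPM in column WT-2. TPM are transcript abundances per length, scaled to the same total in each library, and the sums were 0.918% and 1.08% of all transcripts in the cKO columns, against 0.908% and 1.01% in the WT columns. The groups overlapped, with cKO-2 highest and WT-1 lowest. The mean sum was 9982 ± 1137 TPM in the cKO columns and 9594 ± 732 TPM in the WT columns (SD, n = 2 each), a ratio of 1.04. This ratio was 1.12 without cKO-1 and 0.957 without cKO-2, and 0.962 when libraries were scaled by the median ratio over genes. No p is given for the sum of the 7 genes.

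**Figure D1:**
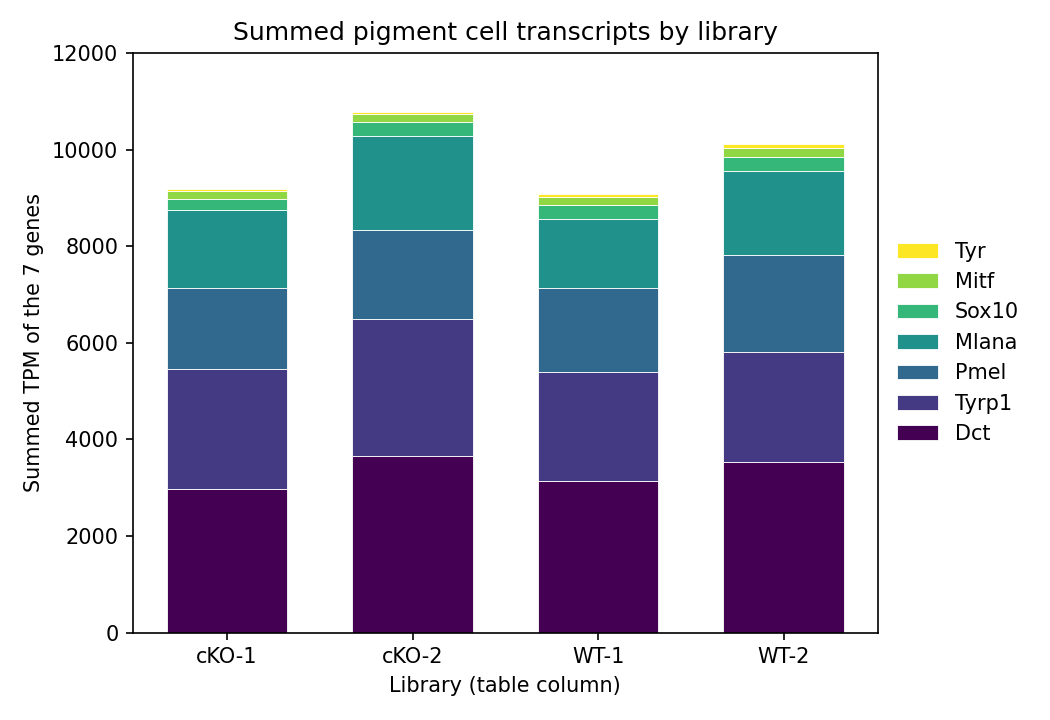
Summed TPM of the 7 pigment cell genes (vertical axis) in each library (horizontal axis), with each gene's part as a coloured segment. The bars stand at 9178 and 10786 TPM in the cKO columns and at 9077 and 10112 TPM in the WT columns, and in each bar Dct is the largest segment.

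The order of the genes by level was nearly the same in all 4 libraries. Dct was the highest in each, ranking between 23 and 31 among all gene rows, and Tyrp1 was next, ranking between 34 and 59. Pmel and Mlana came after them and were close, since Pmel exceeded Mlana in cKO-1, WT-1 and WT-2 but not in cKO-2. Both transcription factor genes stood well below these 4, with Sox10 above Mitf in every library. Tyr was the lowest of the 7 in every library, ranking between 1887 and 3535. Dct made up 33.1 ± 0.975% of the summed TPM in the cKO columns and 34.8 ± 0.268% in the WT columns, while Tyr made up 0.437 ± 0.00355% and 0.635 ± 0.0688% (SD, n = 2 each, cKO columns first).

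**Figure D2:**
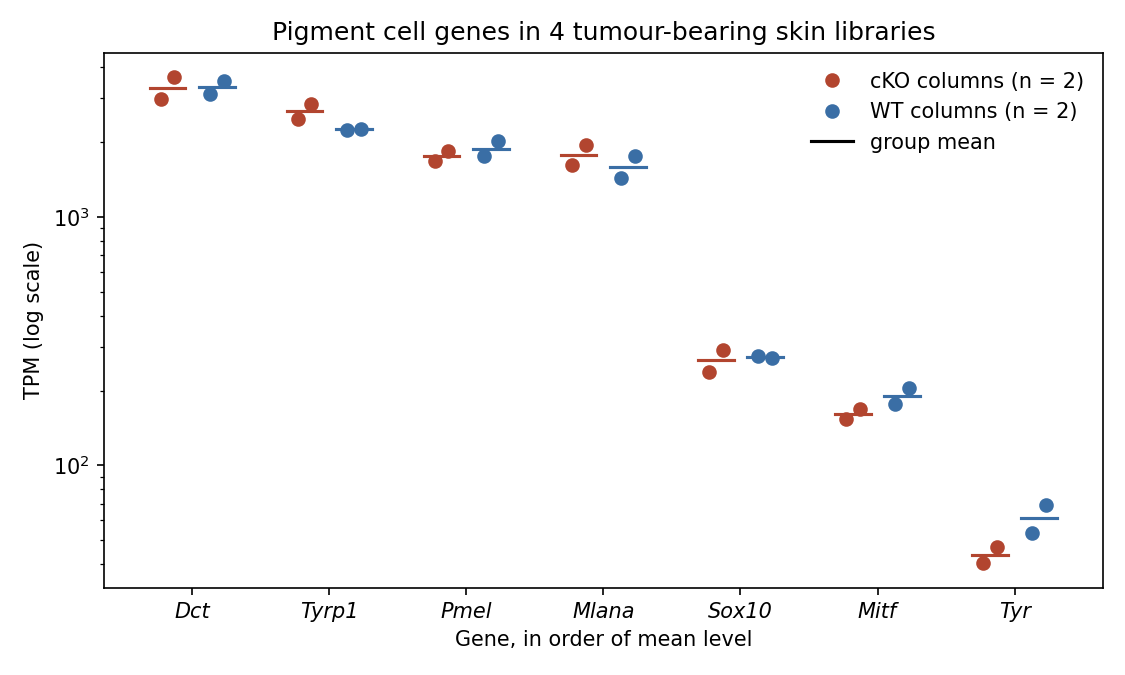
TPM on a log axis (vertical) of each gene (horizontal, in order of mean level) in the cKO columns, left, and the WT columns, right; points are libraries and lines are group means of 2 libraries. Dct lies at 2977 to 3647 TPM and Tyr at 40.3 to 69.2 TPM, and the points of the 2 groups are apart for Tyr, Mitf and Tyrp1. The groups were apart for 51.1% of all genes tested, and Tyrp1 overlapped when libraries were scaled by the median ratio over genes.

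Over all genes tested, 9 passed the threshold of an adjusted p under 0.05 (limma, moderated test, Benjamini-Hochberg adjustment), which is 0.0619%. None of the 7 pigment cell genes was among them, with adjusted p between 0.319 and 0.969. At an unadjusted p under 0.05 the count was 1 of 7, Tyr, against 15.3% of all genes tested. That count was 0 of 7 under 6 of the 13 alternative settings. For 3 of the 7 the libraries of the groups were apart, against 51.1% of all genes tested. These 3 were 1 gene higher in both cKO columns, against 35.4% of all genes, and 2 genes lower in both, against 15.7%. The median log2 change of the 7 was -0.051 and that of all genes tested was 0.093. No test compared the 7 with the rest of the table, so these counts and medians are given as description.

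Of the melanin enzymes, Tyr had 40.3 and 46.8 TPM in the cKO columns, against 53.3 and 69.2 TPM in the WT columns. Both cKO columns were below both WT columns, and WT-2 was the highest. The log2 change of Tyr was -0.47 ± 0.17 (SE, 95% interval -0.93 to -0.019, limma adjusted p = 0.319), its mean TPM differed by -28.8%, and it did not pass. Among all genes tested, 15.8% had a larger absolute log2 change than Tyr.

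Tyrp1 had 2478 and 2842 TPM in the cKO columns, against 2248 and 2267 TPM in the WT columns. Both cKO columns were above both WT columns, which were nearly equal to each other. The log2 change of Tyrp1 was 0.23 ± 0.12 (SE, 95% interval -0.094 to 0.56, limma adjusted p = 0.415). When libraries were scaled by the median ratio over genes the separation was lost, with scaled levels of 2357 and 2763 for Tyrp1 in the cKO columns, against 2288 and 2408 in the WT columns. Tyr and Mitf stayed apart between groups under that scaling. Dct had 2977 and 3647 TPM in the cKO columns, against 3138 and 3534 TPM in the WT columns. The groups of Dct overlapped fully, with the WT libraries lying between the cKO libraries. Its log2 change was -0.015 ± 0.16 (SE, 95% interval -0.44 to 0.41, limma adjusted p = 0.969), and 95.5% of all genes tested had a larger absolute change.

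The melanosome structure genes overlapped between groups. Pmel had 1678 and 1841 TPM in the cKO columns, against 1751 and 2013 TPM in the WT columns. The lowest Pmel library was cKO-1 and the highest was WT-2, with cKO-2 and WT-1 between them. Its log2 change was -0.095 ± 0.13 (SE, 95% interval -0.44 to 0.25, limma adjusted p = 0.726). Mlana had 1613 and 1949 TPM in the cKO columns, against 1435 and 1753 TPM in the WT columns. The lowest Mlana library was WT-1 and the highest was cKO-2, with cKO-1 below WT-2. Its log2 change was 0.16 ± 0.17 (SE, 95% interval -0.29 to 0.61, limma adjusted p = 0.653).

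Of the transcription factor genes, Mitf had 153.8 and 168.6 TPM in the cKO columns, against 176.5 and 205.05 TPM in the WT columns. Both cKO columns were below both WT columns. The log2 change of Mitf was -0.24 ± 0.11 (SE, 95% interval -0.55 to 0.071, limma adjusted p = 0.388). Sox10 had 238.4 and 291.2 TPM in the cKO columns, against 275.6 and 270.3 TPM in the WT columns. The WT libraries lay between the cKO libraries. Its log2 change was -0.051 ± 0.12 (SE, 95% interval -0.39 to 0.29, limma adjusted p = 0.856).

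**Figure D3:**
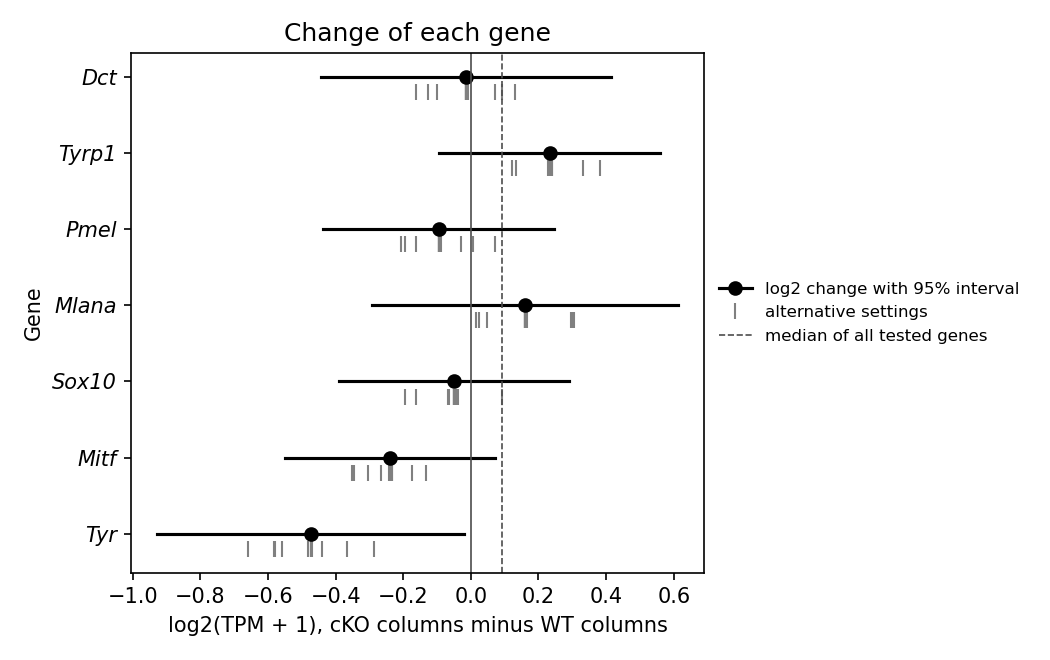
log2 change of each gene, cKO columns minus WT columns, on the log2(TPM + 1) scale (horizontal) with its 95% interval; grey ticks are the values under alternative settings, and the dashed line is the median of all genes tested (0.093). The interval of Tyr (-0.93 to -0.019) lies below 0, those of the other 6 genes include 0, and none of the 7 passed after adjustment over all genes; under 6 of the 13 alternatives no gene of the 7, Tyr included, had an unadjusted p under 0.05.

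None of the 7 genes passed the adjusted test. The intervals describe how large a difference the 4 libraries leave room for in each gene taken alone. Unlike the adjusted p, they are not adjusted over the genes tested, and no joint interval over the 7 genes was computed. Across the 7 genes the 95% intervals ran from 0.526-fold (Tyr) to 1.53-fold (Mlana) of the WT columns. For 4 of the 7 genes the group means differed by less than the larger gap between the libraries of 1 group. All 7 genes were higher in cKO-2 than in cKO-1, and 6 of 7 were higher in WT-2 than in WT-1, the exception being Sox10. When libraries were scaled by the median ratio over genes, Sox10 was at 280.5 in WT-1 and 287.2 in WT-2. The shares of all genes tested that met these rules were not computed, so these counts only describe the 7 genes. The median within-group SD of the 7 was 0.14 on the log2 scale, and that of all genes tested was also 0.14. Over the 4 libraries the highest value was 1.20 times the lowest for Pmel and 1.72 times for Tyr, the ends of the range for the 7 genes. The range of Tyr over the libraries was wider than that of 78.9% of all genes tested, and the range of Pmel was wider than that of 28.1%.

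**Figure D4:**
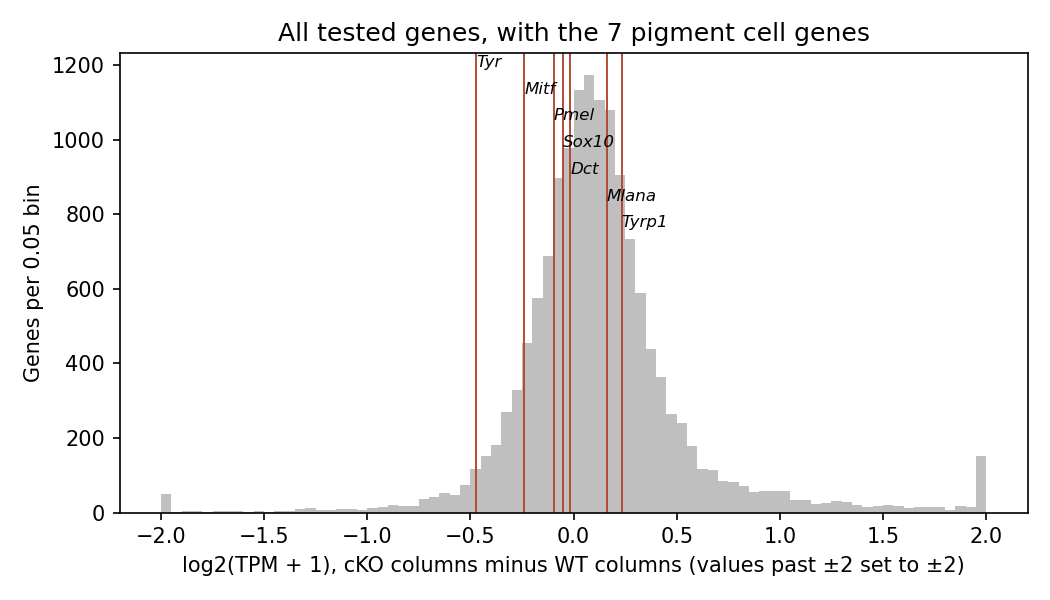
Number of tested genes (vertical) by log2 change, cKO columns minus WT columns (horizontal), with the 7 pigment cell genes as red lines. Tyr, at -0.47, lies in the left flank of the distribution, and the other 6, between -0.24 and 0.23, lie in its main body.

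Ratios between the genes within a library do not depend on how that library was scaled, and they show how the balance among the 7 differed between columns. Tyr per 100 Tyrp1 transcripts was 1.63 and 1.65 in the cKO columns, against 2.37 and 3.05 in the WT columns. Both cKO values were lower and lay close together. Tyr per 100 Mlana was 2.50 and 2.40 in the cKO columns, against 3.71 and 3.95 in the WT columns, and Tyr was lower in both cKO columns relative to each of the other 6 genes. Mitf was lower in both cKO columns relative to Dct, Tyrp1, Pmel and Mlana, its ratio to Sox10 overlapped, and it was higher relative to Tyr. Mlana per 100 Mitf, for example, was 1049 and 1156 in the cKO columns, against 813 and 855 in the WT columns.

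The ratio of Tyrp1 to Mlana, the 2 genes with the highest log2 changes, overlapped between groups at 153.7 and 145.8 per 100 Mlana in the cKO columns, against 156.7 and 129.3 in the WT columns. Dct per 100 Pmel was 177 and 198 in the cKO columns, against 179 and 176 in the WT columns, and also overlapped. Mitf per 100 Sox10 was 64.5 and 57.9 in the cKO columns, against 64.0 and 75.9 in the WT columns, another overlapping pair. In all, the ratios of 16 of the 21 pairs did not overlap between groups. Of these, 6 were with Tyr, 5 with Tyrp1 and 5 with Mitf, where a pair may count under more than 1 gene. The other genes had such pairs too. Mlana, whose own levels overlapped, was apart relative to Tyr, Dct, Pmel, Mitf and Sox10. The 21 pairs are built from 7 genes and are not independent. Over all pairs of tested genes above 0 TPM in every library, 48.9% did not overlap. No test was made on the ratios, which were examined after the levels had been seen.

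**Figure D5:**
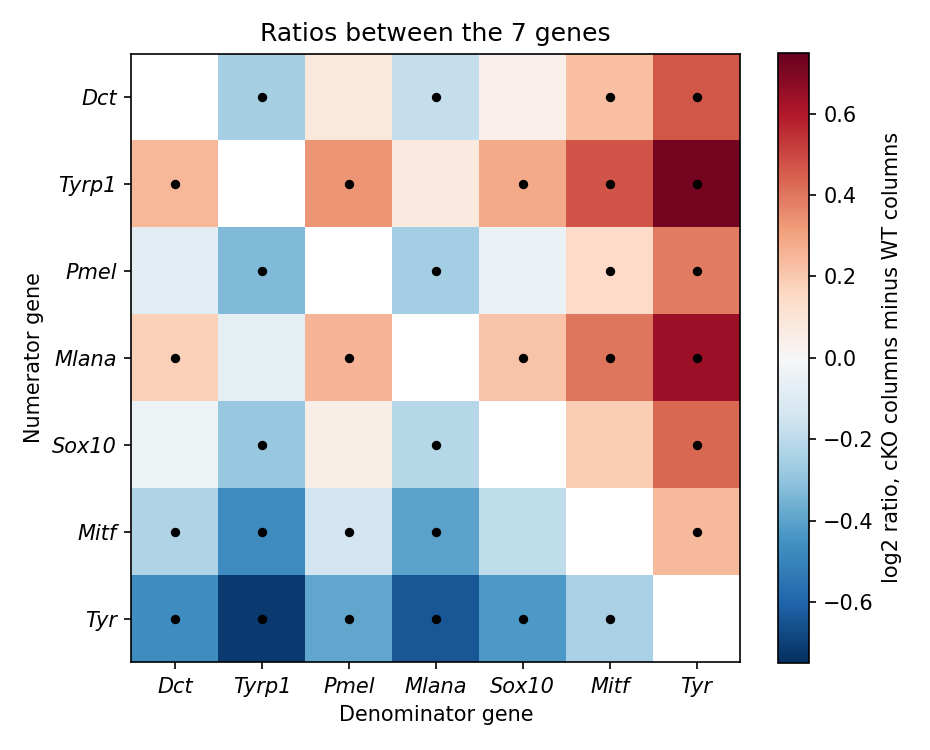
Difference in the log2 ratio of 2 genes between cKO and WT columns, as cKO columns minus WT columns (colour), for each numerator gene (row) over each denominator gene (column); a dot marks a pair whose ratios do not overlap between groups. The Tyr row is blue and dotted throughout, with -0.72 against Tyrp1 and -0.64 against Mlana at its strongest. Its pairs all share Tyr, whose own levels were lower in both cKO columns, and are not independent. Over all pairs of tested genes above 0 TPM in every library, 48.9% did not overlap.

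To find genes with a similar course over the 4 libraries, the log2(TPM + 1) values of each gene were centred on their mean and compared by Euclidean distance with the mean profile of the 7, which was -0.14 in cKO-1 and 0.075 in cKO-2, against -0.054 in WT-1 and 0.12 in WT-2. Of 10613 other genes with a mean of at least 5 TPM, the nearest was ENSMUSG00000068923 at a distance of 0.0175, followed by ENSMUSG00000026672 at 0.0242. ENSMUSG00000068923 had 8.41 and 9.86 TPM in the cKO columns, against 8.98 and 10.4 TPM in the WT columns. The table does not name these genes. The 7 themselves were spread widely around their own mean profile. Pmel, at 0.0675, and Dct, at 0.0751, were the closest, with 70 and 101 other genes nearer, while Tyr, at 0.427, was the farthest, with 6820 other genes nearer. The mean profile varied little, so a gene that did not vary would lie nearer to it than Tyr, Tyrp1 (0.324) or Mlana (0.246) did. Each of the 7 is also part of the mean profile it was compared with. The 6820 genes nearer than Tyr thus need not share the course of the 7. With 4 libraries, such a distance is a description of these columns.

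The libraries as wholes were alike but not equal. Over tested genes, log2 values correlated at 0.956 between the cKO columns, at 0.980 between the WT columns and at 0.937 to 0.966 across groups. Column cKO-1 listed 14970 genes at 1 TPM or more, against 14044 to 14321 in the other 3 libraries. Without cKO-1 the log2 change of Tyr was -0.37, that of Mitf -0.17, that of Tyrp1 0.33 and that of Mlana 0.30. Without cKO-1 the log2 changes of Dct and Sox10 turned positive, at 0.13 and 0.093. The changes also moved without WT-2, to -0.29 for Tyr, -0.13 for Mitf, 0.24 for Tyrp1 and 0.30 for Mlana. Dct and Pmel turned positive without WT-2, at 0.071 and 0.0056. With any 1 of the 4 libraries left out, none of the 7 passed.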

How the data were processed

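Per the labels' protocols, RNA came from a column kit and libraries were stranded and poly(A)-selected; the protocols name cultured keratinocytes as the source for every sample. The authors deposited TPM for each mouse gene, rounded to 0.01; GRCm39 is the mouse build in the submitters' processing notes, and no source used here gives the aligner or quantifier. TPM keep no depth, so counting error is unknown, and an abundant gene that changes moves all others. Groups follow the table columns. Values were transformed to log2(TPM + 1) from the deposited TPM, which understates changes of low genes. A gene was tested where 2 or more of the 4 libraries reached 1 TPM, using limma 3.58.1 under R 4.3.3 (intensity trend, two-sided, Benjamini-Hochberg over 14537 genes, threshold 0.05). The procedure was checked on simulated data, where the planted changes were larger than those of the 7 genes. The members and lists were chosen with earlier results of these data known. All 7 members were named, with the nearest genes by profile. Planned marker lists, Camp and promoter motifs needed mouse gene names and were not analysed here. The A375 table was not used here. Alternatives were pseudocounts, filters, scalings, a replicate block, no trend and each library left out, the last on the same 14537 genes.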

Additional observations from a re-analysis of the deposited data

How the results depend on the processing

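None of the 7 genes passed in limma under any of the 13 alternatives. The count of these genes at an unadjusted p under 0.05, 1 as reported, was 2 with the replicate block and with quantile normalization. It was 0 with no filter, with the 50 most abundant genes removed, with no intensity trend and without cKO-1, cKO-2 or WT-2, and 1 in the other 5. Tyr and Mitf stayed below 0 and Tyrp1 and Mlana above 0 in all 13, with log2 changes of -0.66 to -0.29 for Tyr, -0.35 to -0.13 for Mitf, 0.12 to 0.38 for Tyrp1 and 0.016 to 0.30 for Mlana. Quantile normalization, which moved the median of all genes from 0.093 to -0.039, turned Dct to 0.092 and Pmel to 0.070. With each library left out, Dct ran from -0.16 to 0.13, Pmel from -0.20 to 0.0056 and Sox10 from -0.19 to 0.093, turning without cKO-1 (Dct, Sox10) or WT-2 (Dct, Pmel). The count of 9 genes over the whole table became 3 with a pseudocount of 0.1, 0 with a pseudocount of 5, 0 with no filter, 3 with a filter of 5 TPM and 17 with no intensity trend; the cause was not tested. It ran from 0 to 55 with each library left out, being 55 without cKO-2 and 0 without cKO-1, WT-1 or WT-2. Where it was 0 in limma, 778 to 2869 genes had an unadjusted p under 0.05. Same-numbered columns share only a number. Over genes, their deviations from the group mean correlated at 0.22, and with 2 libraries a group both pairs give this same value. A replicate block gave 6 genes in limma, with a smallest adjusted p of 0.133 among the 7. Depth is unknown and 2 libraries a group limit the precision.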
